A study of Rattus norvegicus with 8 samples.

Results

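Collagen chain genes were taken as every gene with a symbol of the form Col, a number, a and a number, found by matching the accession of each probe to RefSeq names. Of 44 such symbols in the RefSeq table for the rat, 21 were named by 31 of the 30367 non-control probes, among 26633 genes and unnamed transcripts in all, and the other 23 were not analysed here. The samples were kidney RNA of male SD rats aged 10 weeks, on 8 one-colour Agilent arrays in 2 groups of 4. The APL group was given APL at 150 mg/kg; the abbreviation is taken to mean allopurinol, a drug that blocks xanthine oxidase, because the study's title names allopurinol as the agent of its fibrosis model. The Control group was given 0.5% methylcellulose, and both groups were treated for 4 weeks. The title speaks of renal tubules and the tissue label of kidney. The labels do not say that replicates are separate animals, so p-values measure the spread between these samples, which may be technical. The study's design text calls the 2 groups a control group and a renal fibrosis group, and the question was which collagen chains differed between them.

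Collagens are triple helices of 3 alpha chains, and a given collagen type is built from set combinations of chains. Fibrillar collagens form the banded fibres of the interstitium. Type IV forms the network of basement membranes under tubules, vessels and the glomerulus, while FACIT collagens bind to the surface of fibrils. In kidney fibrosis, activated fibroblasts and myofibroblasts are known to deposit fibrillar collagen around tubules.

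Values below are spot signals divided by the 75th percentile of their array, called scaled signal, so 1 is the level of the 75th percentile itself. That percentile was 455 ± 53.0 in APL arrays and 291 ± 18.04 in Control arrays (SD, n = 4 each), and 80.8% ± 0.838 of probes were well above background on APL arrays, against 75.04% ± 1.53 on Control arrays. Each of 2 slides held 2 APL and 2 Control arrays. Over the 21420 genes and unnamed transcripts tested, arrays correlated at 0.919 to 0.961 within APL and at 0.897 to 0.937 within Control. Between groups they correlated at 0.802 to 0.858. Because probes differ in brightness, ratios and sums over probes of different genes have no meaning as levels, and are given below only to compare the same ratio or sum between arrays.

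Of the 21 collagen genes, 20 passed the filter on dim probes and were tested with limma, and 9 of them were higher in APL kidneys, 1 was lower and 10 were not called at an adjusted p under 0.05. Over all 21420 genes and unnamed transcripts tested, 23.5% were called in either direction, 11.9% higher and 11.5% lower. All 4 APL arrays lay above or below all 4 Control arrays for 29.8% of everything tested, and for 10 of the 20 collagen genes, 9 above and 1 below. The median log2 fold change of the 20 collagen genes was 0.63, against -0.03 over all tested. The 10 called genes kept their sign on both slides, as they must where the groups do not overlap, so this adds no separate support. In bulk kidney, more cells of a type and more RNA per cell cannot be told apart. The split of all calls moved with scaling: they were 50.8% higher with the 75th percentile and 83.7% higher without scaling between arrays, where the median of all genes moved to 0.61 and that of the collagen genes to 1.27.

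**Figure D1:**
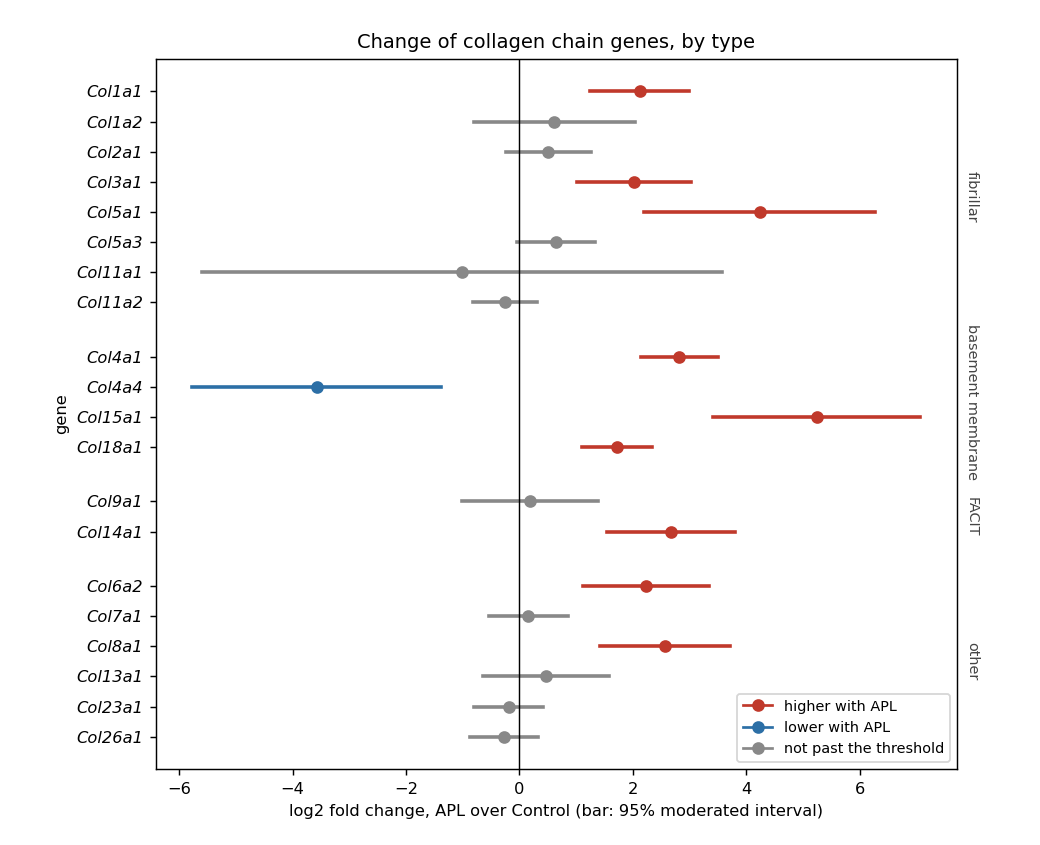
Log2 fold change of APL over Control with its 95% confidence interval for each of the 20 tested collagen genes, grouped by type. Col15a1 lies farthest right at 5.25 and Col4a4 is the 1 called gene left of 0, at -3.57.

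The fibrillar group had 8 genes on the arrays, all tested, and 3 were higher: Col1a1, Col3a1 and Col5a1. Col1a1 encodes the major chain of type I collagen, the most abundant fibrillar collagen. Its scaled signal was 19.2, 11.6, 10.8 and 27.4 in APL kidneys, against 3.21, 5.26, 2.46 and 4.44 in Control kidneys. Every APL array was above every Control array, and the difference was 2.12 ± 0.38 on the log2 scale (SE, adjusted p = 0.00615), or 4.35-fold. Within slides it was 1.86 and 2.38. Col3a1, the single chain of type III collagen that forms fibres with type I, had scaled signals of 37.0, 20.3, 16.5 and 57.5 in APL kidneys and 6.82, 4.92, 10.6 and 7.53 in Control kidneys. The groups did not overlap, and Col3a1 rose by 2.01 ± 0.44 (adjusted p = 0.0139), with 2.24 and 1.79 on the 2 slides.

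Col5a1 encodes a chain of type V collagen, which co-assembles with type I and is known to limit fibril width. Its scaled signal was 1.099, 0.347, 0.309 and 0.645 in APL kidneys, against 0.0638, 0.0812, 0.005 and 0.0232 in Control kidneys, where 0.005 is the floor set on the signal and 3 of 4 arrays were well above background. It rose by 4.24 ± 0.89 (adjusted p = 0.0121), with 3.10 and 5.37 on the 2 slides, and the size of this change depended on the background correction: it was 1.71 with normexp correction and the 75th percentile, and 1.30 with normexp correction and quantile scaling. Col1a2 encodes the other chain of type I collagen, of which each helix holds a single copy. Its scaled signal was 1.30, 0.927, 0.396 and 3.12 in APL kidneys, against 0.726, 0.807, 1.14 and 0.402 in Control kidneys. The groups overlapped, with APL replicate 3 at the bottom of all 8 arrays, and the difference of 0.62 ± 0.62 was not called (adjusted p = 0.500, 95% interval -0.81 to 2.04). The other fibrillar genes were not called either. Col5a3, another type V chain, had scaled signals of 0.232, 0.350, 0.298 and 0.412 in APL kidneys and 0.320, 0.152, 0.202 and 0.169 in Control kidneys, where Control replicate 1 reached into the APL values, and differed by 0.65 (adjusted p = 0.158). Without scaling between arrays it was called at 1.28 (adjusted p = 0.0175). Col11a1, a chain of the minor fibrillar type XI, had 0.005, 0.551, 0.005 and 0.139 in APL kidneys and 0.109, 0.836, 0.0699 and 0.005 in Control kidneys. Both groups had arrays at the floor and the difference was -1.01 with an interval of -5.60 to 3.58, so little can be said of its direction. Col2a1, the main fibrillar collagen of cartilage, differed by 0.51 and Col11a2, the partner of Col11a1, by -0.25.

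**Figure D2:**
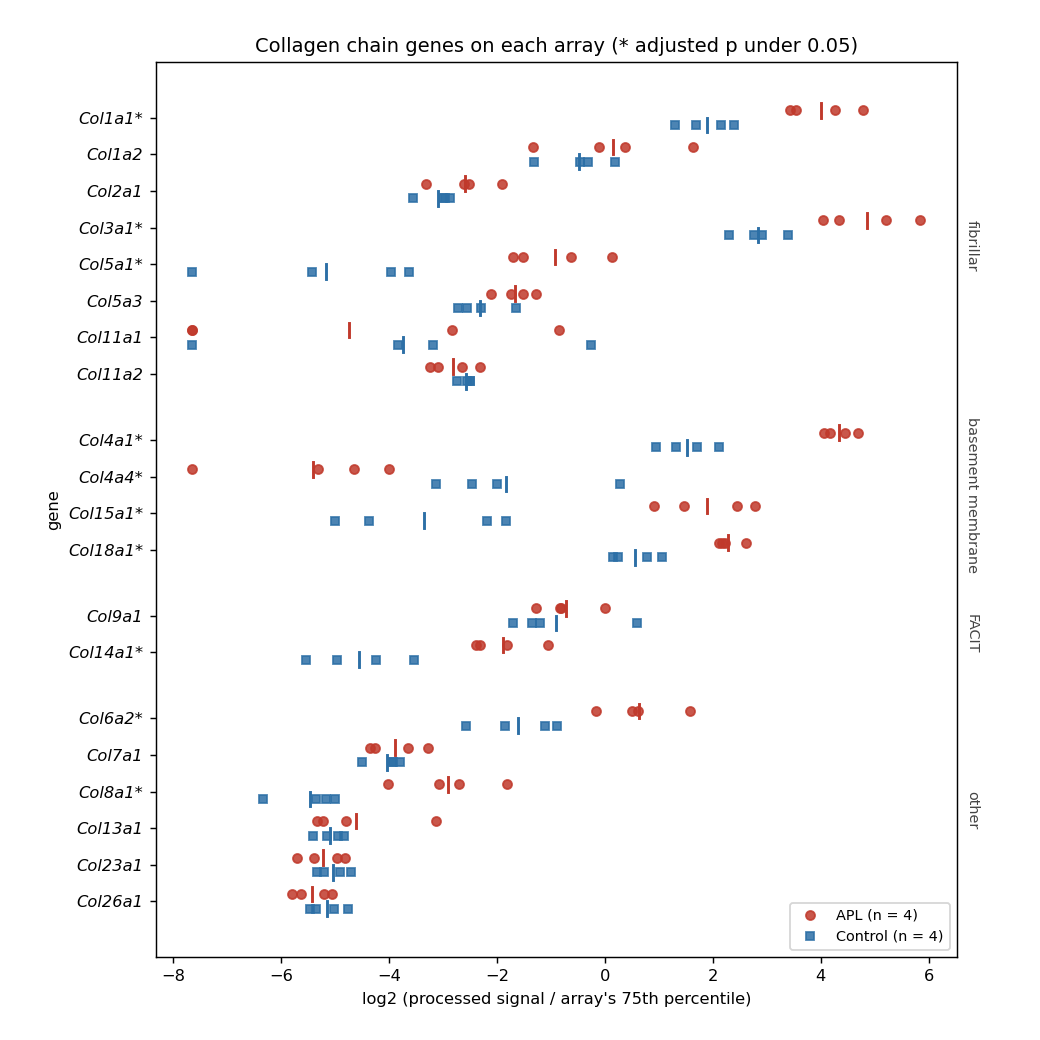
Log2 of the scaled signal on each array for the 20 tested collagen genes by type, with APL arrays (circles) above Control arrays (squares) in each row and a short line at each group mean. Stars mark the 10 called genes, whose groups do not overlap, while those of Col1a2 do.

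Basement membrane collagens had 4 genes on the arrays, Col4a1, Col4a4, Col15a1 and Col18a1, of which 3 were higher and 1 was lower. Type IV chains fall in different networks: alpha 1 with alpha 2 in basement membranes throughout the body, and alpha 3, 4 and 5 in the glomerular and some tubular basement membranes. Type XV and type XVIII are proteoglycan collagens at the outer face of basement membranes, and a fragment of type XVIII is known as endostatin. The 250 bases before the start of 3 of these genes are shown because their genes had the largest fold changes of the group in either direction. Sequences are from RefSeq on build GRCr8, 5′ to 3′ on the strand of the gene, with capitals on motif matches of either strand: a CCAAT box (CCAAT), a GC box (GGGCGG) and a SMAD element (CAGAC). Motifs were searched in the upstream 250 bases on both strands and may overlap one another.
Col4a1, chr16:84885347-84885596, plus strand: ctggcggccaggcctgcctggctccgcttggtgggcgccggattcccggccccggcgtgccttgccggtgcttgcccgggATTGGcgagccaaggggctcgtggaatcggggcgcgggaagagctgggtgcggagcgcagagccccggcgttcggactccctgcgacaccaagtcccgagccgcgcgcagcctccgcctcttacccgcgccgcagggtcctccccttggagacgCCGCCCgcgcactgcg
Col4a4, chr9:91323578-91323827, minus strand: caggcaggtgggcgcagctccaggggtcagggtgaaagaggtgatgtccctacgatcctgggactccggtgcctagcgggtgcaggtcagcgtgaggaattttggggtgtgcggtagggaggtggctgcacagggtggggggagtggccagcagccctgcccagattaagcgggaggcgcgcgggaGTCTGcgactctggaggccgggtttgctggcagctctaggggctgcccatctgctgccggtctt
Col15a1, chr5:66297296-66297545, plus strand: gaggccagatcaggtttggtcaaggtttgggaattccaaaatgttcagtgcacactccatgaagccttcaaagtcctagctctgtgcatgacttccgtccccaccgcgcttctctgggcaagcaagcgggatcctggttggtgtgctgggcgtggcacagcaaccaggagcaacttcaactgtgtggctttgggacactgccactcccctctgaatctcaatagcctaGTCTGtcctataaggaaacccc
In the Col4a1 window the CCAAT box reads ATTGG and begins 170 bases before the start, and the GC box reads CCGCCC at 16 bases. The SMAD element reads GTCTG at 64 bases in Col4a4 and at 22 bases in Col15a1. Col4a1 lies head to head with Col4a2, whose start is 77 bases away, and Col4a4 with Col4a3, whose start is 413 bases away; neither partner was named on the arrays. Of the 21 genes, 16 had a promoter in the table. Among these, 4 held a CCAAT box, against 34.0% of the 33469 promoters of all genes, 9 held a GC box, against 30.5%, and 6 held a SMAD element, against 42.9%. A TATA box (TATAAA) was in 2, against 12.9%, and an AP-1 site (TGANTCA) in 0, against 6.34%. A match describes letters in the window and not a site in use.

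Col4a1 had scaled signals of 16.6, 21.7, 17.97 and 25.7 in APL kidneys, against 2.48, 3.27, 1.94 and 4.33 in Control kidneys. The lowest APL array was above the highest Control array, and the difference was 2.81 ± 0.29 (adjusted p = 0.000475), the smallest p of all collagen genes, with 2.74 and 2.89 on the 2 slides. Col15a1 had 5.43, 1.88, 2.76 and 6.87 in APL kidneys and 0.0485, 0.219, 0.281 and 0.0311 in Control kidneys. It rose by 5.25 ± 0.79 (adjusted p = 0.00270), or 37.99-fold, the largest change among collagen genes, and by 3.23 after normexp correction and quantile scaling. Col18a1 had 6.12, 4.32, 4.70 and 4.48 in APL kidneys and 1.72, 2.09, 1.11 and 1.18 in Control kidneys, a rise of 1.72 ± 0.26 (adjusted p = 0.00297).

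Col4a4, a chain of the glomerular network, had scaled signals of 0.005, 0.0397, 0.0250 and 0.0625 in APL kidneys, against 0.249, 0.180, 1.22 and 0.114 in Control kidneys. All 4 APL arrays were below all Control arrays, Control replicate 3 was far above the other Control arrays, and 3 of 4 APL arrays were well above background. The difference was -3.57 ± 0.95 (adjusted p = 0.0309, 95% interval -5.77 to -1.38). This call was lost with normexp correction (-0.50 with the 75th percentile, adjusted p = 0.668), without the filter (adjusted p = 0.0512), and when any one of APL replicates 1 to 3 or Control replicates 1 to 3 was left out, where adjusted p was 0.0522 to 0.0649. Markers of podocytes, the cells that make that network, did not follow one direction: of 9 tested, 3 were higher and 1 lower, with Nphs1 at -0.42 (not called), and their part in the Col4a4 result was not tested.

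Of the FACIT collagens, Col9a1, Col9a2 and Col14a1 were on the arrays and 2 were tested. Col14a1 encodes the chain of type XIV, which binds the surface of type I fibrils. It had scaled signals of 0.202, 0.190, 0.283 and 0.484 in APL kidneys, against 0.0216, 0.0321, 0.0531 and 0.0866 in Control kidneys. The groups did not overlap and the rise was 2.67 ± 0.49 (adjusted p = 0.00663), with 2.90 and 2.45 on the 2 slides. With its 2 kept probes averaged, the difference was 1.17 (adjusted p = 0.120), and it was 0.72 (adjusted p = 0.0225) after normexp correction and quantile scaling. Col9a1, a chain of cartilage type IX, had 0.563, 0.571, 1.001 and 0.415 in APL kidneys and 0.308, 0.436, 0.393 and 1.502 in Control kidneys. Control replicate 4 was the highest of all 8 arrays, and the difference was 0.19 ± 0.52. Col9a2 did not pass the filter, being well above background on 2 APL arrays and 1 Control array.

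Among the 6 other collagen genes, Col6a2 and Col8a1 were higher. Col6a2 encodes a chain of type VI, which forms beaded filaments around cells. Its scaled signal was 1.41, 0.887, 1.52 and 2.97 in APL kidneys, against 0.461, 0.278, 0.167 and 0.542 in Control kidneys, a rise of 2.23 ± 0.48 (adjusted p = 0.0138). Col8a1, a short-chain network collagen known from vessels and the cornea, had 0.284, 0.0618, 0.118 and 0.154 in APL kidneys and 0.0245, 0.0124, 0.0314 and 0.0278 in Control kidneys. It rose by 2.56 ± 0.50 (adjusted p = 0.00883), with 3 of 4 Control arrays well above background, and after normexp with quantile scaling the difference was 0.50 (adjusted p = 0.0568). The groups did not overlap for either gene. Col7a1, the anchoring fibril collagen under epithelia, differed by 0.16, the transmembrane collagens Col13a1 and Col23a1 by 0.47 and -0.19, and Col26a1 by -0.27, none of them called. Col23a1 and Col26a1 changed sign with the processing. Without scaling Col23a1 was at 0.45 and Col26a1 at 0.37, where the median of all genes was 0.61. With normexp and the 75th percentile they were at 0.52 and 0.47, above the median of 0.36 in that setting. Within slide 1, where the median was 0.008, Col23a1 was at 0.37 and Col26a1 at -0.23.

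**Figure D3:**
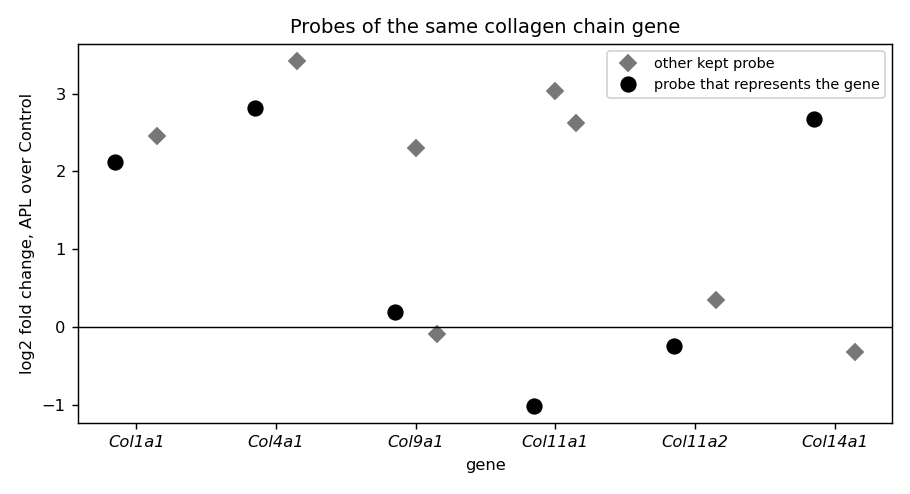
Log2 fold change of APL over Control for every kept probe of the 6 collagen genes with more than 1, circles for the probe that stands for the gene and diamonds for the others. Probes of Col1a1 and Col4a1 lie on the same side of 0, and those of Col11a1 and Col14a1 on both sides.

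For 6 genes, more than 1 probe was kept and the brightest stood for the gene. Of the 8 other probes, 3 had the same sign and 5 the opposite sign. The second probe of Col1a1 gave 2.46 and that of Col4a1 gave 3.42, in the same direction as the first. The groups overlapped for the second Col1a1 probe and not for that of Col4a1. In Col11a1 the other probes gave 3.03 and 2.62 against -1.01, and in Col11a2 the other gave 0.34 against -0.25. For the Col11a1 probe at 3.03 the groups did not overlap, with 4 APL arrays and 1 Control array well above background. In Col14a1 the second probe gave -0.32 against 2.67. It was dim, well above background on 2 APL and 2 Control arrays. In Col9a1 the others gave 2.30 and -0.09 against 0.19. Of the 3 probes not kept, the second one of Col26a1 was well above background on 0 APL arrays and 2 Control arrays. Taking the mean of all 4 Control arrays, it was at least 2.07-fold lower in APL kidneys, a bound that includes 2 Control values not well above background.

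Chains that form a helix or belong to one class were compared as log2 ratios within an array, in 4 pairs tested by an exact two-sided permutation test whose smallest p for 4 against 4 is 0.0286. The ratio of Col15a1 over Col18a1 was -0.38 ± 0.79 in APL kidneys and -3.91 ± 1.58 in Control kidneys (SD, n = 4 each), a difference of 3.53 (exact p = 0.0286, adjusted p = 0.114). That of Col1a1 over Col1a2 was 3.86 ± 0.68 in APL kidneys and 2.36 ± 0.99 in Control kidneys, a difference of 1.502 (exact p = 0.0571, adjusted p = 0.114). The Col15a1 over Col18a1 ratio did not overlap between groups and its p is the smallest the design allows, so over 4 pairs a single ratio could not have passed the threshold after adjustment. Col3a1 over Col1a1 differed by -0.10 and Col11a1 over Col11a2 by -0.77 (adjusted p = 0.8286 for both in the exact test).

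**Figure D4:**
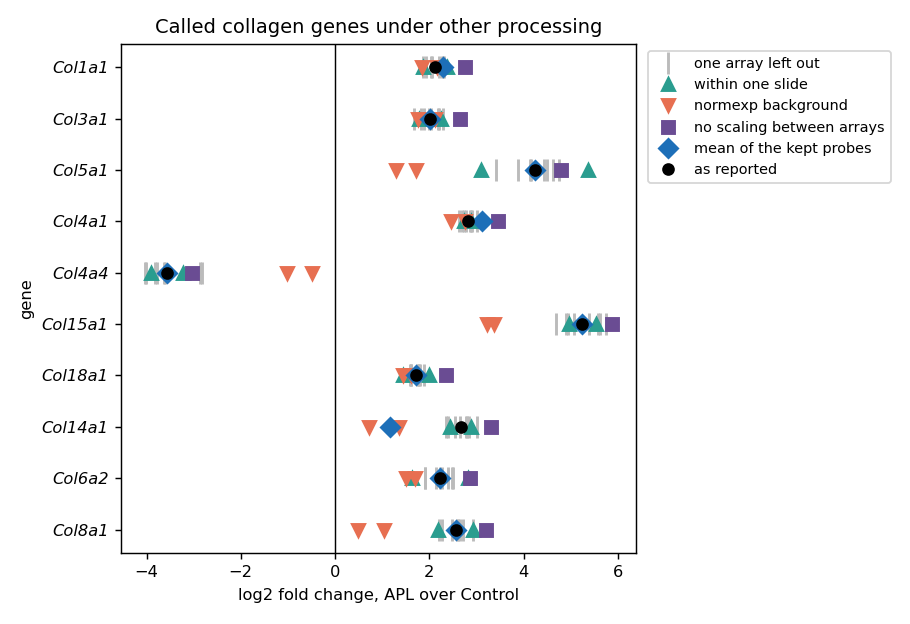
Log2 fold change of APL over Control for the 10 called collagen genes as reported and with arrays left out, within slides, with normexp correction, without scaling and with averaged probes. Col4a4 is left of 0 in each setting drawn, nearest to it at -0.50 with normexp, and Col15a1 is the farthest right in each.

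Genes that make, bind or cut collagen, or inhibit its cutting, were grouped in 6 lists with basement membrane partners. The lists were chosen with earlier results of these data in view. Among the 19 tested genes for folding and modification, 7 were higher and 0 lower. P3h4, a member of a lysyl hydroxylase complex, rose by 3.42 ± 0.24 (adjusted p = 6.95e-05), Sparc, a collagen-binding protein, by 2.23, and Plod2, a lysyl hydroxylase, by 2.76. Fkbp10, a collagen chaperone, was not well above background on any Control array, and was at least 6.99-fold higher in APL kidneys. It passed the filter through its 4 APL arrays alone. Its Control values lay at or beside the floor, so its p-value is not given, though it counts among the 7 higher. Serpinh1, the collagen chaperone HSP47, was higher by 2.12, and P4hb, P4ha1, P4ha2 and P4ha3, which encode subunits of prolyl 4-hydroxylase, differed by -0.75, -0.67, -0.32 and 0.39 and were not called. Serpinh1, the prolyl 4-hydroxylase genes and Bmp1 are named for their roles, with their values already seen.

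Of 12 tested genes for trimming and crosslinking, 6 were higher and 2 lower. Pcolce, an enhancer of procollagen processing, was higher by 3.34, Bmp1, the C-proteinase of procollagen, by 3.05, and Tgm2, a crosslinking transglutaminase, by 2.40. The 2 lower were Mep1a at -5.89 ± 0.40 (adjusted p = 6.38e-05) and Mep1b at -9.78 ± 1.05 (well above background on 2 APL arrays), the meprin chains of the proximal tubule brush border. Of 10 proximal tubule markers tested, 8 were lower, among them Slc34a1 at -4.53 and Lrp2 at -2.15, 1 was higher, and their summed scaled signal was 42.0 to 54.7 in APL kidneys, against 451 to 539 in Control kidneys. Their part in the meprin result was not tested.

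Collagen breakdown had 7 higher and 3 lower of 15 tested. The 7 include Mmp16, which passed the filter through its 4 APL arrays alone. The list also holds inhibitors of breakdown: Timp1 and Timp2 are among the 7 higher and Timp3 among the 3 lower. Its counts therefore do not give a direction of breakdown. The summed scaled signal of the list was 112 to 155 in APL kidneys, against 210 to 234 in Control kidneys. Timp1, an inhibitor of metalloproteinases, was higher by 5.99 ± 0.34 (adjusted p = 2.87e-05), Mmp7, a matrilysin well above background on 2 Control arrays, by 6.60, and Timp2 by 3.51. Pepd, a peptidase of proline-ended dipeptides, was lower by 2.72 on the log2 scale, and Timp3 and Ctsl were lower as well, at -1.95 and -0.70. Of 11 fibril-associated genes, 3 were higher, Fbln1 at 4.43, Bgn at 2.00 and Thbs1 at 1.80, while Fn1 at 2.24 was not called (adjusted p = 0.0865). Of 8 collagen receptors, 2 were higher, Itga1 at 1.73 and Itgb1 at 1.13, while Lair1 at -0.93 and Adgrg1 at 0.26 were not called. Of 9 basement membrane partners, 3 were higher, among them Lamc1 at 1.72 and Lama5 at 0.82, while Agrn at 0.89 was not called. The share called in either direction was 23.5% over everything tested, 66.7% for trimming, 66.7% for breakdown, 36.8% for folding and 33.3% for basement membrane partners. The fibril-associated genes at 27.3% and the receptors at 25.0% lay near that 23.5%. Their 3 and 2 calls were all higher, beside 11.9% called higher over everything tested. Among the receptors, Lair1, Ddr1, Ddr2 and Mrc2 were below 0 and not called. With slide as a block, 1 receptor was called lower. Median log2 fold changes were 2.10 for trimming, 1.45 for breakdown, 1.11 for fibril-associated genes, 1.104 for basement membrane partners, 0.76 for folding and -0.17 for receptors, beside -0.03 for all tested.

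**Figure D5:**
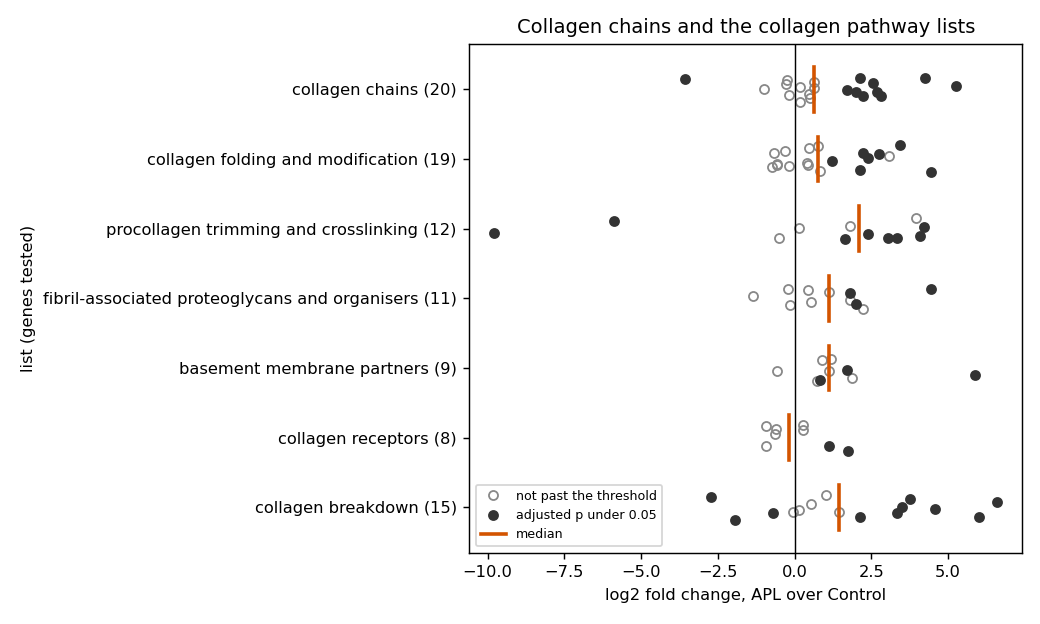
Log2 fold change of APL over Control for the 20 collagen genes and the 6 pathway lists, each point a gene. Mep1a and Mep1b lie farthest left, and Fkbp10 and Mmp16, not well above background on any Control array, are drawn at their fitted values.

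Markers of the cells that could hold collagen RNA were read beside these results. For their counts, 23.5% of everything tested was called, 11.9% higher and 11.5% lower. Myofibroblast and smooth muscle markers had a summed scaled signal of 0.913 to 7.495 in APL kidneys and 0.683 to 1.36 in Control kidneys, with 0 of 6 tested called, Acta2 at 1.17 and Tagln at 2.49. Fibroblast and pericyte markers summed to 2.33 to 4.95 in APL kidneys and 4.47 to 5.49 in Control kidneys, with 2 of 8 higher and 1 lower, Pdgfra at -1.25 and Pdgfrb at 0.22. Of the 9 genes higher in APL kidneys, 6 were highest on APL replicate 4 and 3 on APL replicate 1. Col4a1 was lowest on APL replicate 1, 5 genes were lowest on replicate 2 and 3 on replicate 3. The myofibroblast sum was also highest on APL replicates 4 and 1, at 7.495 and 4.76, with 2.29 and 0.913 on replicates 2 and 3. That sum leaned on Tagln, the brightest tested marker on replicates 1, 2 and 4. Its log2 values were 1.76, 0.05, -3.15 and 2.36 on APL replicates 1 to 4. Acta2 was also highest on replicates 4 and 1, while Myh11, Des and Cnn1 were highest on replicate 2 and Actg2 on replicates 4 and 3. The fibroblast and pericyte sum had 4.95 and 4.66 on APL replicates 4 and 1 and 2.33 and 3.16 on replicates 2 and 3. The folding list had 114.7 and 95.7 on replicates 4 and 1 and 86.6 and 84.8 on replicates 2 and 3. No other list had its highest sums on both replicates 4 and 1. By the single highest array, as counted for the genes, other lists peaked on replicate 4 too. They were trimming at 59.4, fibril-associated genes at 47.2, receptors at 18.6 and podocyte markers at 5.39. Of the higher collagen genes, Col4a1, Col6a2, Col14a1 and Col18a1 did not have both replicates 4 and 1 on top. Whether these orders are related was not tested. On APL replicates 1 to 4, macrophage sums were 11.8, 15.5, 18.6 and 16.4. Those of injured tubules were 117, 150, 157 and 135, and of basement membrane partners 25.1, 28.8, 25.9 and 25.9. Macrophage markers were higher in 4 of 7 (Cd68 at 2.62, Adgre1 at -0.34, not called), with sums of 11.8 to 18.6 in APL kidneys and 2.54 to 9.54 in Control kidneys. Endothelial markers were lower in 7 of 9, among them Pecam1 at -2.79 (Cdh5 at -2.55 was not called), with sums of 1.004 to 1.43 in APL kidneys and 7.95 to 12.9 in Control kidneys. Markers of injured tubules were higher in 6 of 9, among them Havcr1 at 5.17 and Lcn2 at 7.58, with sums of 117 to 157 in APL kidneys and 1.58 to 3.38 in Control kidneys. Urothelial sums were 0.251 to 0.328 in APL kidneys and 0.294 to 0.379 in Control kidneys with 0 of 4 called. Cartilage markers had 1 higher (Sox5 at 3.32, with no value on Control replicate 1) and 1 lower of 5. The part of these markers in the collagen results was not tested.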

How the data were processed

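Labelled RNA of 8 kidney samples was hybridised to Agilent rat arrays, and the scanner files were read as deposited. Per the file headers, the authors scanned at 5 micrometres and ran Agilent Feature Extraction 10.5.1.1 with protocol GE1_105_Dec08 on array design 028282 (build rn4); the processed signal used here is a spot intensity from which the authors' run of that software had subtracted background. The deposited value table of the series is on a log2 scale; it was used as an alternative, its rows matched by probe, and it correlated with the rebuilt values at 0.999 or above on every array. Coordinates of rn4 were not used; promoter coordinates are those of RefSeq on GRCr8.

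Spots of a probe were averaged, signals divided by the 75th percentile of the array, floored at 0.005 and turned to log2. Of 30367 probes, 18643 had 1 RefSeq symbol and 11724 none. Probes well above background on at least 4 of 8 arrays were kept, the brightest per gene, giving 21420 tested. The 2 groups entered a moderated linear model (R 4.3.3, limma 3.58.1) without the replicate number, with Benjamini-Hochberg adjustment at 0.05. No collagen value depended on saturation, since 0 probes were saturated. Precision is limited by 4 arrays per group.

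Members were all accounted for, and per-array values are given for called members and for Col1a1, Col1a2, Col3a1, Col4a1 to Col4a6, Col5a1, Col5a2, Col6a1 to Col6a3, Col15a1 and Col18a1 where on the arrays; lists give their 4 smallest adjusted p and opposite calls, and marker lists their first 2 genes, except for some genes that are not reported here. The members and lists were chosen with earlier results of these data known. Alternatives were normexp correction (offset 50), quantile scaling, no scaling, a floor of 0.02, other filters, averaged probes, slide as a block or alone, the replicate number as a block, the deposited table and leaving out each array.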

Additional observations from a re-analysis of the deposited data

How the results depend on the processing

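Over the alternatives, 9 collagen genes stayed higher except with normexp correction (8), the filter on all 8 arrays (7), averaged probes (8), no scaling between arrays (10, Col5a3 added) and within slide 1 (2) or slide 2 (0). Col4a4, the 1 lower gene, was not called (0 lower) with either normexp setting, no filter, the all-array filter, within slides, under the replicate block or without Control 1 to 3 or APL 1 to 3. Its log2 fold change was -0.50 with normexp and the 75th percentile. Under the all-array filter Col4a4, Col5a1, Col8a1 and Col11a1 had no kept probe and no value. The collagen median was 0.37 with normexp and quantile scaling, 1.27 without scaling, 0.99 with averaged probes and 0.99 within slide 2. Over all genes, calls were 1037 higher and 971 lower with normexp and the 75th percentile, 5881 and 1142 without scaling, 509 and 513 within slide 1, 376 and 278 within slide 2. Leaving out arrays gave 1609 to 2205 higher, 1777 to 2019 lower and 0 to 1 collagen genes lower. The pathway lists gave 8 lower without the filter, 11 higher and 3 lower within slide 1, and 6 and 2 within slide 2.

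With the replicate block, 1644 genes were higher and 1616 lower, 9 collagen genes were higher and Col4a4 was lost (adjusted p = 0.0691). Same-numbered arrays did not deviate together: correlations were 0.0109, 0.0102, 0.0482 and -0.0157, and APL 1 to 3, not APL 4, correlated best with the Control array of their own number, a hint from the data and not from the design. Same-numbered arrays also share a slide (replicates 1 and 2 on slide 1, 3 and 4 on slide 2). No correlation was over 0.1, so the numbers were not taken to pair the arrays.

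Signs turned only in genes and ratios that were not called. The median of all genes moved as well, to 0.36 with normexp and the 75th percentile and to 0.61 without scaling. With normexp and the 75th percentile the genes that turned were Col11a1 (0.13), Col11a2 (0.26), Col23a1 (0.52) and Col26a1 (0.47). Without scaling they were Col11a2 (0.39), Col23a1 (0.45) and Col26a1 (0.37). With averaged probes they were Col11a1 (1.54) and Col11a2 (0.046). Within slide 1 they were Col11a2 (0.14), Col2a1 (-0.029) and Col23a1 (0.37), and within slide 2 Col11a1 (0.50), Col9a1 (-0.25) and Col13a1 (-0.23). Leaving out arrays moved Col9a1 between -0.074 and 0.69, Col11a1 between -2.32 and 0.14, Col13a1 between -0.032 and 0.70 and Col7a1 between -0.044 and 0.32. The ratio difference of Col11a1 over Col11a2 was 1.499 with averaged probes, 1.14 within slide 2 and -2.09 to 0.37 with arrays left out, and that of Col3a1 over Col1a1 0.38 within slide 1 and -0.46 to 0.27. Causes of the sign changes were not tested. For dim probes the fold change depends on the floor: at 0.02, Col5a1 was 3.74 and Col4a4 -3.07.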
